A study of Mus musculus with 12 samples.

Results

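Basal epithelial cells form the outer layer of mammary ducts and alveoli, and most of them are myoepithelial cells that contract to eject milk. Followed here are 10 of their genes: Trp63, which encodes the transcription factor p63; the contractile genes Acta2, Actg2, Myh11, Mylk, Cnn1 and Tagln; the oxytocin receptor gene Oxtr; and the adhesion genes Itga6 and Cdh3. The genes were taken by name as basal and contractile markers, without the keratins, and all probe sets annotated to them were included. They had 21 of the 45101 probe sets in the table. Of these, 13 probe sets from 9 genes passed the filter on low values, which was applied over all groups together, and neither Cdh3 probe set passed.

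The study measured gene expression in mammary glands of female BALB/c mice with Affymetrix arrays, to find genes that need the progesterone receptor for their response to acute progesterone. The 4 groups were null mice given progesterone for 24 h, wild type mice given it for 24 h, null mice given it for 8 h and wild type mice given it for 8 h, with 3 arrays in each. All mice were ovariectomized and 10 weeks old. All were injected subcutaneously with 17β-estradiol (100 ng) 24 h ahead of the combined hormones, 17β-estradiol (100 ng) plus progesterone (2.5 ug). Null mice lack the progesterone receptor, and the labels say no more of the allele. RNA of 3 mice was pooled for every array, and the pools of a group are numbered 1 to 3. No group went without progesterone. A difference between genotypes therefore cannot be told apart from one present before the hormone, and a difference between 24 h and 8 h cannot be told apart from a longer estradiol treatment. In whole-gland RNA, fewer basal cells and less RNA per basal cell cannot be told apart.

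p63 sits at the head of the basal programme: it maintains basal epithelial cells and is needed for the mammary gland to form. In differentiated myoepithelial cells, serum response factor and its cofactors switch on smooth muscle actins, smooth muscle myosin and their regulators through CArG boxes, short A- and T-rich motifs in the promoters. Oxytocin released at suckling binds its receptor on these cells and, through Gq proteins and calcium, activates myosin light chain kinase, and the cells shorten. Integrin α6 anchors the basal cells to the basement membrane.

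Levels are log2 values, so a difference of 1 is a doubling. Levels of different probe sets are not compared with each other, since probes differ in how strongly they bind. Differences are given as null minus wild type or 24 h minus 8 h. They were tested with limma over all 23709 probe sets that passed the filter, with Benjamini-Hochberg adjustment. A difference was called at an adjusted p below 0.05, and every adjusted p below is of this kind.

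The keratins of the basal layer, which were not used to choose the genes, gave a check of the cell type. All 3 were measured in every group: in null 24 h, wild type 24 h, null 8 h and wild type 8 h glands in turn, Krt5 averaged 7.22 ± 0.22, 8.38 ± 0.46, 8.03 ± 0.26 and 8.14 ± 0.51 (log2, SD, n = 3 each). The array medians lay between 5.84 and 5.91, so Krt5 was above the median level of a probe set in all 4 groups. Krt14 averaged 7.57 to 9.28 and Krt17 5.11 to 6.90 over the groups. Krt17 lay below the array medians in null 24 h glands (5.11) and among them in wild type 8 h glands (5.89). Its signal was weak there. The targeted gene Pgr checked the genotype labels only in part. One of its probe sets was 2.08-fold lower at 8 h in null glands (adjusted p = 0.012), and at 24 h it lay 1.28-fold lower (adjusted p = 0.45). Another was higher in null than in wild type glands at both times, 4.28-fold at 24 h and 3.92-fold at 8 h. Arrays of 1 group correlated at 0.965 to 0.993 over the tested probe sets. The spread between pools was large for one group of genes outside the basal layer: 14 skeletal muscle genes ranged in their mean deviation from -3.47 in null 8 h pool 2 to 2.38 in wild type 24 h pool 1 (log2, each gene set against its own mean over the 12 arrays).

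**Figure D1:**
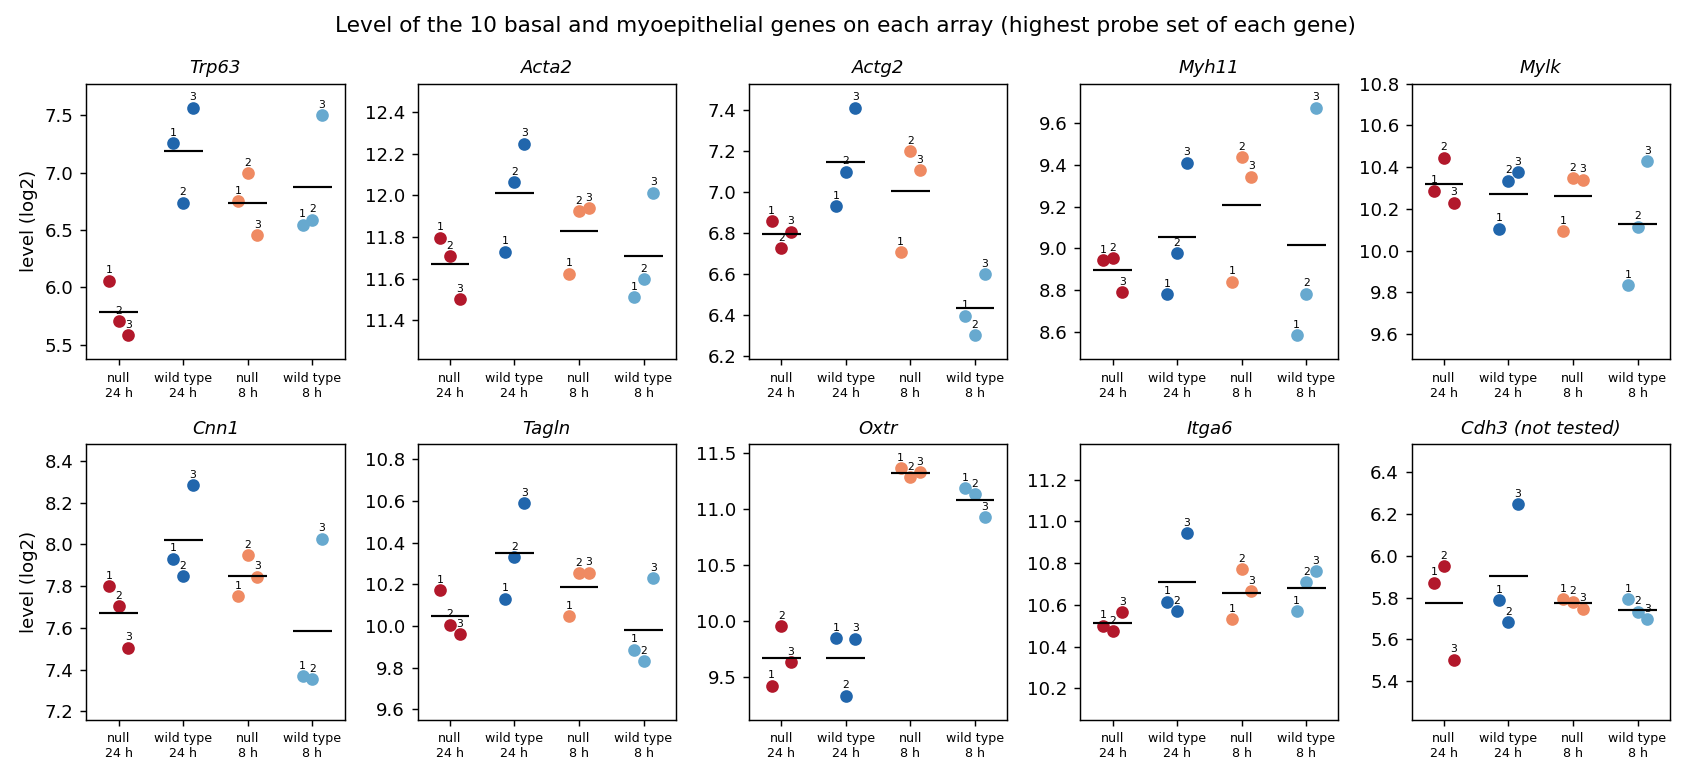
Level (log2) of each of the 10 genes on each of the 12 arrays, 1 panel per gene with its own y axis; points are pools, small numbers are the pool numbers and bars are group means (n = 3). The 3 null 24 h pools have the 3 lowest Trp63 levels, and the 6 pools at 24 h lie below the 6 at 8 h for Oxtr.

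Trp63 was lower in null glands than in wild type glands at 24 h and lay close between the genotypes at 8 h. Its only tested probe set, 1418158_at, read 6.06, 5.70 and 5.58 in null glands at 24 h, against 7.26, 6.74 and 7.57 in wild type glands (log2, pools 1 to 3). At 8 h it read 6.75, 6.99 and 6.46 in null glands, against 6.55, 6.59 and 7.50 in wild type glands. The 3 null 24 h pools were the lowest of all 12, and they did not overlap any other group. The means were 5.78 ± 0.25 in null and 7.19 ± 0.42 in wild type glands at 24 h, and 6.73 ± 0.27 in null and 6.88 ± 0.54 in wild type glands at 8 h (SD, n = 3 each). The 3 groups above null 24 h overlapped one another.

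At 24 h the difference for Trp63 was -1.41 (SE 0.27, 95% interval -2.00 to -0.81, adjusted p = 0.033), 2.65-fold lower in null glands. The probe set exceeded the array median on 10 of the 12 arrays, and null 24 h pools 2 and 3 lay below theirs (5.88 and 5.86). Weak signal there limits how far the size of the difference can be read. Among fits with 1 pool left out, the adjusted p was 0.12 without null 24 h pool 2, 0.10 without null 24 h pool 3, 0.13 without wild type 24 h pool 1 and 0.15 without wild type 24 h pool 3, so each of these ended the call. The difference stayed between -1.63 and -1.22 in all alternatives. At 8 h the difference was -0.14 (SE 0.27, adjusted p = 0.87). The change of the genotype difference between the times was -1.26 (SE 0.39, unadjusted p = 0.0071, adjusted p = 0.46), so the 24 h difference was not shown to differ from that at 8 h. Within null glands, 24 h lay 0.95 below 8 h (difference -0.95, SE 0.27, adjusted p = 0.071), and within wild type glands 24 h lay above 8 h (0.31, SE 0.27, adjusted p = 0.56). The null comparison passed without wild type 8 h pool 3 (adjusted p = 0.036), which enters only through the shared estimate of the spread. That comparison passed too with both wild type pools 3 left out (adjusted p = 0.027), an alternative chosen after seeing the data. With arrays weighted by their quality the adjusted p was 0.0051.

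The 3 other Trp63 probe sets lay below the median level of their array on all 12 arrays and were not tested. One of them, 1459581_at, averaged 3.95 ± 0.33 in null and 4.56 ± 0.17 in wild type glands at 24 h, and 4.31 ± 0.20 and 4.47 ± 0.08 at 8 h (SD, n = 3 each). The other 2 averaged between 3.45 and 3.95 in every group. The files do not say which isoform of p63 each probe set reads.

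Basal keratins and luminal genes also lay lower in null glands at 24 h. Krt14, a keratin that pairs with Krt5 in basal cells, averaged 7.57 ± 0.19 in null and 9.28 ± 0.80 in wild type glands at 24 h, and Krt17 averaged 5.11 ± 0.19 and 6.90 ± 1.31 (SD, n = 3 each). With limma 0 of the 3 keratins were called and all 3 had an unadjusted p below 0.05. Their median difference at 24 h was -1.72, against -0.01 over all 12002 genes. The null 24 h mean of Krt17 lay below the array medians, so weak signal limits how far its difference can be read. Of 12 luminal genes, 10 lay lower in null glands at 24 h with a median of -0.37, and 4 were called: the tight junction genes Cldn7 (2.28-fold lower) and Cldn3 (1.99-fold lower), the cadherin gene Cdh1 (1.81-fold lower) and the keratin gene Krt7 (1.38-fold lower). At 8 h 6 of the 12 lay higher in null glands (median 0.15), and 2 luminal keratin genes were called higher: Krt8 by 1.74-fold and, by 1.31-fold, Krt18. Over time 4 luminal genes were called lower at 24 h in null glands: the growth factor receptor gene Kit (1.80-fold), Krt7 (1.75-fold), Cldn7 (1.72-fold) and Cdh1 (1.43-fold). In wild type glands 3 were called higher at 24 h: Foxa1, a luminal transcription factor gene (1.77-fold), Cldn3 (1.42-fold) and Krt8 (1.39-fold). The mean deviation of the luminal list ran from -0.41 to -0.16 in null 24 h pools and from -0.04 to 0.33 in wild type 24 h pools, and from -0.01 to 0.22 in null 8 h pools and from -0.09 to 0.08 in wild type 8 h pools. The part of epithelial content in the Trp63 difference was not tested.

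Among 10 tested genes of the p63 family and its targets, members of other lists included, 7 lay lower in null glands at 24 h with a median of -0.23, and 0 were called with limma (4 had an unadjusted p below 0.05). At 8 h 8 of the 10 lay higher, with a median of 0.15, and 0 were called with limma (1 had an unadjusted p below 0.05). Fgfr3, a fibroblast growth factor receptor gene, was 1.49-fold lower at 24 h than at 8 h in null glands (adjusted p = 0.028), and Ppp1r13l, which encodes a p53-binding inhibitor, was 1.29-fold higher at 24 h in wild type glands (adjusted p = 0.042). The genes whose levels were most like those of Trp63 over the 12 arrays were Tenm2 (Pearson r = 0.958), the laminin chain gene Lamb3 (r = 0.957) and the epithelial splicing regulator gene Esrp1 (r = 0.948), of 11993 genes compared. Tenm2 averaged 5.73 in null and 7.18 in wild type glands at 24 h, and 6.45 in null and 6.78 in wild type glands at 8 h.

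Of the 6 contractile genes, 1 was called in 1 comparison, Actg2 over time in wild type glands. At 24 h, 5 of the 6 lay lower in null than in wild type glands, with a median of -0.32 and a range from -0.35 to 0.05. With limma 0 were called, where 1.11% of all probe sets were, and 2 had an unadjusted p below 0.05. At 8 h all 6 lay higher in null glands, with a median of 0.20 and a range from 0.12 to 0.57. With limma 0 were called, where 3.07% of all probe sets were, and 1 had an unadjusted p below 0.05. For the change of the genotype difference between the times all 6 lay below 0, with a median of -0.49 and a range from -0.92 to -0.09. There 0 were called with limma, where 0.143% of all probe sets were, and 3 had an unadjusted p below 0.05. Over time, 5 of the 6 lay lower at 24 h in null glands, with a median of -0.17. Of these genes 0 were called with limma, where 4.40% of all probe sets were, and 0 had an unadjusted p below 0.05. In wild type glands all 6 lay higher at 24 h, with a median of 0.34 and a range from 0.04 to 0.71. Actg2 was called there, where 5.22% of all probe sets were. Both genotype comparisons use separate pools, but the time comparisons reuse them: each group enters 1 genotype and 1 time comparison. The 6 genes also varied together between pools, so a count of them is not a count of independent results.

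Promoter sequence was available in the RefSeq promoter table of GRCm38.p6 for 4 of the 10 genes, 3 of them contractile. The 3 are shown because their genes varied together between pools. Each window runs 5′ to 3′ along the gene's strand, from 250 bases before the annotated start to 50 after it, and the table holds 1 window per gene. Capitals mark matches to the motifs described after the sequences, in Acta2 a pair of receptor half-sites followed by a pair of CArG-like stretches and in Mylk a half-site.
Acta2 (chr19:34255324-34255623, minus strand): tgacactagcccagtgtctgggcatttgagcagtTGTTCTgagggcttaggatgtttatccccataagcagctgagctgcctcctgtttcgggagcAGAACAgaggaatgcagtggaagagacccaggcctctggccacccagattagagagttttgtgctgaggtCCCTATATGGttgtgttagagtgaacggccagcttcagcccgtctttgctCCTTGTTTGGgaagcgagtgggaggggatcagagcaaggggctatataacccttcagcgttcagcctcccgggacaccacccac
Mylk (chr16:34784700-34784999, plus strand): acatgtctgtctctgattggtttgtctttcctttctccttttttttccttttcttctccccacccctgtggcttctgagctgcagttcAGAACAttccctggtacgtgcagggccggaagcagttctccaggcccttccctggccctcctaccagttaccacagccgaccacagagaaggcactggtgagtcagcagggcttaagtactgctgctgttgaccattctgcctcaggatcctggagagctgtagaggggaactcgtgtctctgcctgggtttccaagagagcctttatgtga
Cnn1 (chr9:22099003-22099302, plus strand): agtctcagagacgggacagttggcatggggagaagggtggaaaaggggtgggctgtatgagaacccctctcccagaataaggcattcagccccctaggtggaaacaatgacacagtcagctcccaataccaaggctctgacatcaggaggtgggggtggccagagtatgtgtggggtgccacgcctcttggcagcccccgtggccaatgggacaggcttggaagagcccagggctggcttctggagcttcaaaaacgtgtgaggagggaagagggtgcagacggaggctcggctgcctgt

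The search covered both strands for the CArG box (CCNNNNNNGG with each N an A or T) and for AGAACA, the half-site that progesterone, glucocorticoid and androgen receptors share. No window of the 4 genes held a strict CArG box, which 1.63% of 32851 promoters of the same length held. A looser search, with at least 5 of the 6 central bases A or T, was added after the strict one gave no match. In it Acta2 held 2 matches, at positions -84 and -34 from the annotated start, and 9.98% of promoters held at least 1. The half-site occurred at 2 places in Acta2 and 1 in Mylk, and in 19% of all promoters. The Cnn1 window shown and the Oxtr window, which is not shown, held none of these letters. The end of the Oxtr window looks like a coding start, so its annotated start may not be the main start of the gene. A match describes the letters only, and none of these arrays measured binding.

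Actg2, which encodes enteric smooth muscle actin, was the contractile gene furthest apart between genotypes at 8 h and between times in wild type glands. It read 6.86, 6.73 and 6.81 in null glands at 24 h, against 6.93, 7.10 and 7.41 in wild type glands. Its 8 h values were 6.71, 7.20 and 7.11 in null glands, against 6.40, 6.30 and 6.60 in wild type glands. All null pools were below all wild type pools at 24 h and above them at 8 h. The wild type 8 h pools were the lowest 3 of the 12, and the other 3 groups, with means from 6.80 to 7.15, overlapped except for null and wild type at 24 h.

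In wild type glands Actg2 was 1.64-fold higher at 24 h than at 8 h (difference 0.71, SE 0.15, 95% interval 0.39 to 1.04, adjusted p = 0.022). That call was lost without wild type 24 h pool 2 (adjusted p = 0.051) or pool 3 (0.065) or without wild type 8 h pool 1 (0.091) or pool 2 (0.081). In null glands the same difference was -0.21 (SE 0.15, adjusted p = 0.47). Between genotypes, null lay above wild type at 8 h by 0.57 (SE 0.15, adjusted p = 0.069) and below it at 24 h (-0.35, SE 0.15, adjusted p = 0.33). The 8 h difference passed with the pool number as a replicate block (adjusted p = 0.041), and without null 8 h pool 1 (adjusted p = 0.027) or wild type 24 h pool 3 (0.048). It passed too with arrays weighted by their quality (adjusted p = 0.0012) and, barely, with quantile normalization (0.04998). The change of the genotype difference between the times was -0.92 (SE 0.21, unadjusted p = 0.0010, adjusted p = 0.20). It passed only with arrays weighted by their quality (adjusted p = 0.020).

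Acta2, the smooth muscle α-actin gene by which myoepithelial cells are commonly stained, read 11.80, 11.71 and 11.50 in null glands at 24 h, against 11.73, 12.06 and 12.25 in wild type glands. Its 8 h values were 11.62, 11.92 and 11.94 in null glands, against 11.51, 11.60 and 12.01 in wild type glands. The groups overlapped at both times, and the differences were -0.34 at 24 h (SE 0.16, adjusted p = 0.37) and 0.12 at 8 h (SE 0.16, adjusted p = 0.79). The suffix of its tested probe set, 1416454_s_at, marks probes that can match transcripts of more than 1 gene. Its 2 other probe sets were below the array median on all 12 arrays and were not tested.

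As for Acta2, the highest group for Tagln, which encodes the actin-binding protein transgelin, was wild type at 24 h, followed by null at 8 h. Tagln read 10.17, 10.01 and 9.96 in null glands at 24 h, against 10.13, 10.33 and 10.59 in wild type glands, and 10.05, 10.25 and 10.26 in null glands at 8 h, against 9.89, 9.83 and 10.23 in wild type glands. The difference between genotypes was -0.30 at 24 h (SE 0.13, adjusted p = 0.34) and 0.20 at 8 h (SE 0.13, adjusted p = 0.51), and the groups overlapped at both times. Cnn1, the gene of calponin, a brake on actomyosin, read 7.80, 7.71 and 7.50 in null glands at 24 h, against 7.93, 7.85 and 8.28 in wild type glands. The 8 h values of Cnn1 were 7.75, 7.95 and 7.85 in null glands, against 7.37, 7.35 and 8.03 in wild type glands. All null pools lay below all wild type pools at 24 h (-0.35, SE 0.18, adjusted p = 0.41), and at 8 h the groups overlapped because wild type pool 3 lay above every null pool (0.27, SE 0.18, adjusted p = 0.53).

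Myh11, the smooth muscle myosin heavy chain gene, varied more between the wild type pools than between the group means. Its higher probe set, 1448962_at, read 8.94, 8.95 and 8.79 in null glands at 24 h, against 8.78, 8.98 and 9.41 in wild type glands. At 8 h it read 8.84, 9.44 and 9.34 in null glands, against 8.58, 8.78 and 9.68 in wild type glands. The differences were -0.16 at 24 h and 0.19 at 8 h (SE 0.26 each, adjusted p = 0.85 and 0.80). The other tested probe set, 1418122_at, lay near the array median, at 5.57 to 5.97, and lay lower in null glands at both times (-0.14 and -0.11, adjusted p = 0.65 and 0.71), so the probe sets of Myh11 disagreed in direction at 8 h.

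Mylk encodes myosin light chain kinase, the enzyme that starts contraction. Its probe set 1425506_at read 10.29, 10.45 and 10.23 in null glands at 24 h, against 10.10, 10.34 and 10.38 in wild type glands. Its 8 h values were 10.09, 10.35 and 10.34 in null glands, against 9.84, 10.11 and 10.43 in wild type glands. Null lay above wild type by 0.05 at 24 h and 0.13 at 8 h (SE 0.14 each, adjusted p = 0.93 and 0.72), and a further probe set, 1425505_at, gave 0.04 and 0.19 (SE 0.12 each, adjusted p = 0.92 and 0.49). Mylk was the only one of the 6 not lower in null glands at 24 h. The 95% intervals of all the contractile differences in the 4 comparisons of 2 groups, with 1 probe set per gene, lay between -0.88 and 1.04 on the log2 scale.

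**Figure D2:**
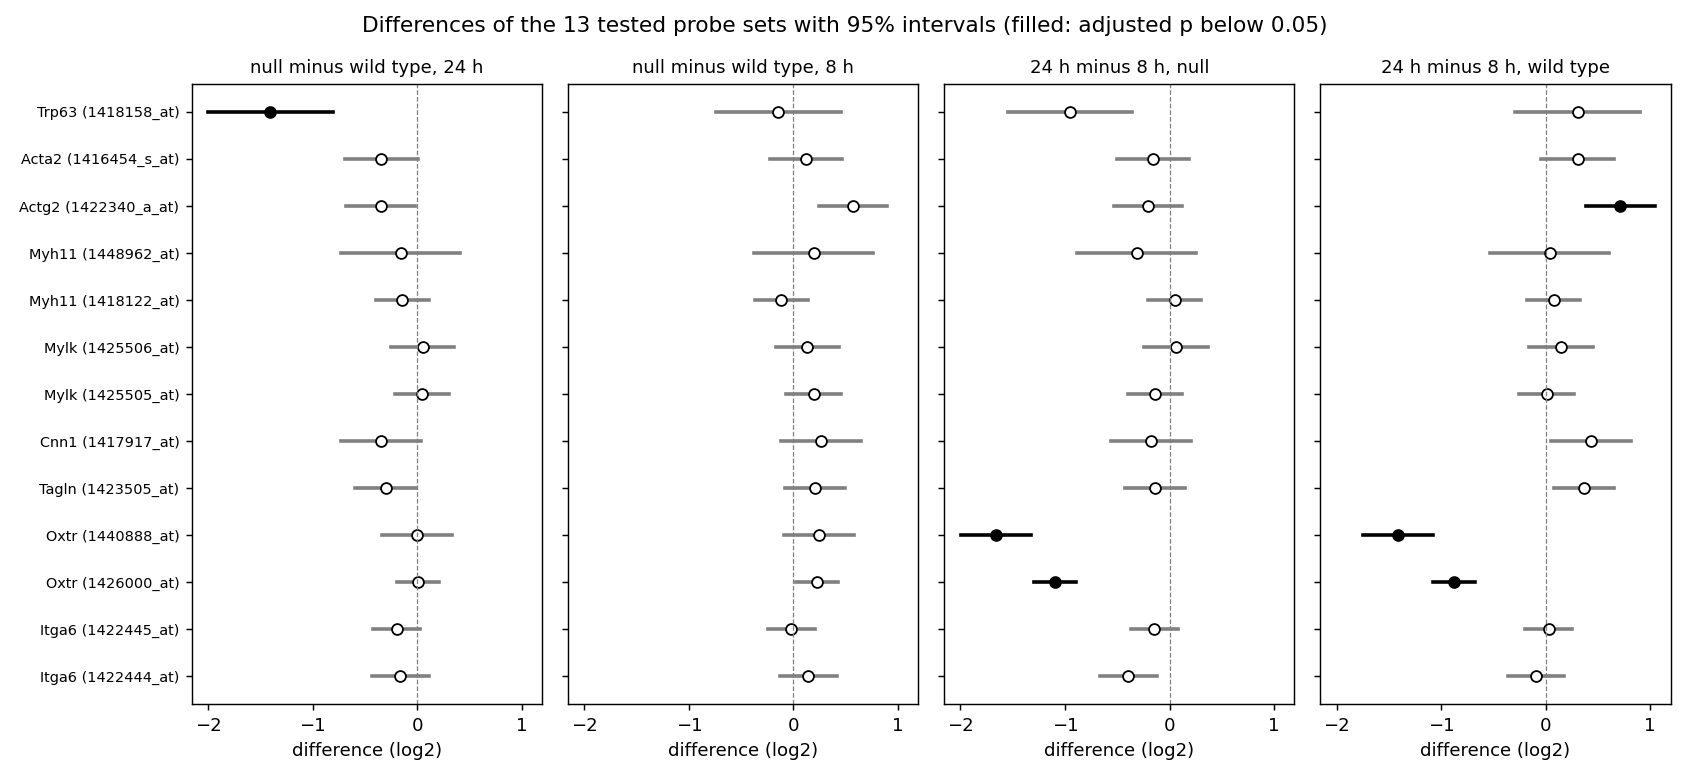
Difference (log2, with its 95% interval) of each of the 13 tested probe sets in the 4 comparisons of 2 groups; filled points have an adjusted p below 0.05. Trp63 is filled for null minus wild type at 24 h, both Oxtr probe sets for 24 h minus 8 h in both genotypes, and Actg2 for 24 h minus 8 h in wild type glands.

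Within a group, the contractile genes were high together in some pools and low together in others. With each gene set against its own mean over the 12 arrays, the 6 genes deviated on average by 0.00, -0.05 and -0.18 in null 24 h pools 1 to 3 and by -0.04, 0.13 and 0.41 in wild type 24 h pools. At 8 h they deviated by -0.13, 0.21 and 0.16 in null pools and by -0.38, -0.31 and 0.19 in wild type pools. Pool 3 was the highest wild type pool at both times, and pools 1 and 2 of wild type at 8 h were the lowest of all 12. Wild type 24 h pool 3 also had the highest mean deviation of the basal keratins, at 1.37. The keratins and the contractile genes had opposite signs in wild type 24 h pools 1 and 2, with keratins at 0.61 and -0.04. So they did in null 8 h pools 1 and 3, with keratins at 0.39 and -0.49. In every other pool the signs were the same, with the contractile genes near 0 in null 24 h pool 1.

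With the group means removed, the 15 pairs of contractile genes correlated over the 12 arrays with a median r of 0.874 (0.624 to 0.954). Over all pairs of the 12002 genes the median r was 0.023. The points share the same 12 arrays and their RNA pools, and the correlation is given as a description. Acta2 and Tagln were the closest pair at 0.954. Trp63 varied with Cnn1 (0.903) and less with Acta2 (0.569), and Itga6 with Actg2 (0.806). Oxtr correlated with the 6 at -0.336 to -0.095.

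Single wild type pools weighed on the contractile differences. Without wild type 24 h pool 3, 4 of the 6 genes lay lower in null glands at 24 h, with a median of -0.20 in place of -0.32. Without wild type 8 h pool 1, 4 of the 6 lay higher at 8 h, with a median of 0.09 in place of 0.20. With both wild type pools 3 left out, an alternative chosen after seeing the data, 4 of the 6 lay lower in null glands at 24 h with a median of -0.20, and all 6 lay higher at 8 h with a median of 0.41. In that fit the Trp63 call at 24 h held (adjusted p = 0.041) and the Actg2 call over time in wild type glands did not (0.077).

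**Figure D3:**
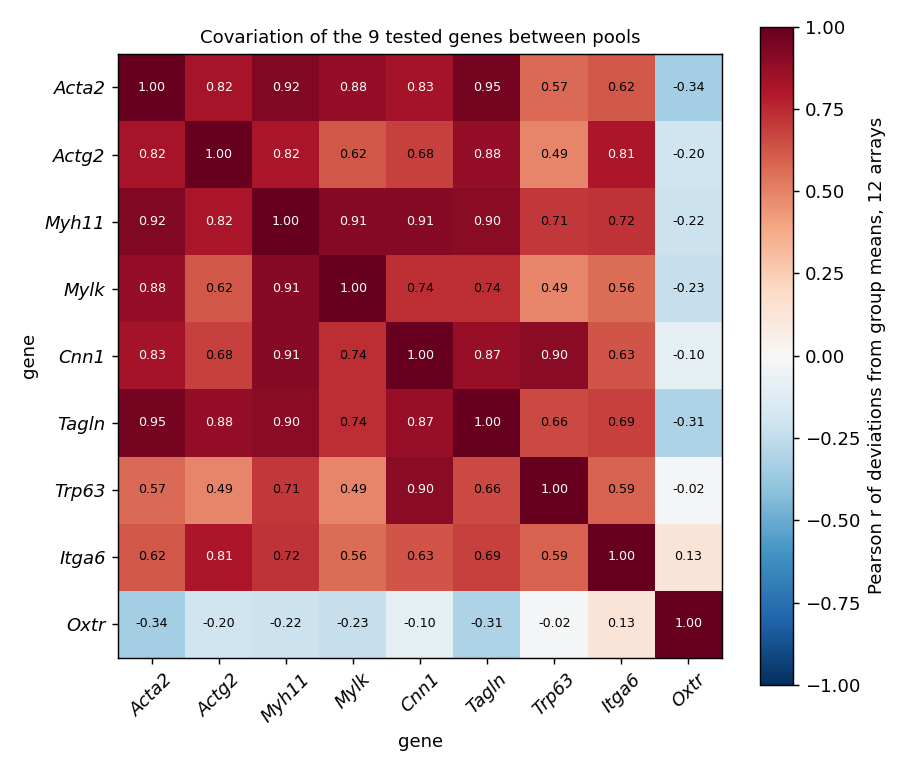
Pearson r between the 9 tested genes over the 12 arrays after the mean of each group was removed, with 1 probe set per gene. The 6 contractile genes form a block from 0.62 to 0.95, and the row of Oxtr lies between -0.34 and 0.13.

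Other smooth muscle genes were counted beside the members. Of 21 tested genes of this kind, such as the tropomyosins, caldesmon and desmin, some of which skeletal muscle also expresses, 15 lay lower in null glands at 24 h (median -0.16) and 12 higher at 8 h (median 0.03). Only Cnn3, a calponin gene that is widely expressed, was called, 1.40-fold lower in null glands at 24 h (adjusted p = 0.046). Between genotypes, pericyte and vascular smooth muscle genes, whose cells also express Acta2, Myh11 and Tagln, leaned in the same directions as the contractile genes. Of 10 such genes, 7 lay lower in null glands at 24 h (median -0.09) and 7 higher at 8 h (median 0.20). With limma 0 of them were called at either time (3 and 4 had an unadjusted p below 0.05). Their mean deviation ran from -0.24 to -0.02 in null 24 h pools and from -0.08 to -0.01 in wild type 24 h pools, and from 0.12 to 0.20 in null 8 h pools and from -0.01 to 0.03 in wild type 8 h pools. Over time in null glands all 10 lay lower at 24 h (median -0.25), and 2 were called, the receptor gene Pdgfrb (1.48-fold) and the connexin gene Gja4 (1.30-fold). Over time in wild type glands, where all 6 contractile genes lay higher at 24 h, 7 of the 10 pericyte genes lay lower (median -0.03). Of the 21 other smooth muscle genes, 11 lay higher there (median 0.01). Of 10 endothelial genes, which mark the lining of vessels, 7 lay lower in null glands at 24 h (median -0.07) and 9 higher at 8 h (median 0.22), where Vwf was called in the other direction, 1.78-fold lower (adjusted p = 0.0090). Over time the endothelial genes Tie1 (1.62-fold), Pecam1 (1.42-fold) and Kdr (1.22-fold) were called lower at 24 h in null glands, and Tie1 (1.26-fold) in wild type glands. The endothelial mean deviation ran from -0.21 to -0.04 in null 24 h pools and from -0.14 to 0.05 in wild type 24 h pools, and from 0.11 to 0.16 in null 8 h pools and from -0.08 to 0.17 in wild type 8 h pools. Of 7 fibroblast genes Dpt, a matrix protein gene, was called, 1.60-fold lower in null glands at 8 h and 1.40-fold lower at 24 h than at 8 h in wild type glands, and of 6 adipocyte genes 0 were called with limma in any comparison (from 0 to 2 had an unadjusted p below 0.05). The part of vessels in the contractile differences was not tested.

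Of the skeletal muscle genes, all 14 lay lower in null glands at 8 h (median -2.09), where the 6 contractile genes lay higher, and 13 lay lower at 24 h (median -1.68). With limma 0 of them were called at 24 h or 8 h (1 and 3 had an unadjusted p below 0.05). Wild type 24 h pool 1, which had the highest skeletal muscle levels, had the lowest Acta2, Actg2, Tagln, Myh11 and Mylk levels of its group. In each 8 h group too, pool 1 had the highest skeletal muscle and the lowest contractile mean deviation. In null 24 h glands pool 1 was the highest for both (0.48 and 0.00). Their relation was not tested. The genes most like Myh11 over the 12 arrays were Igfbp7 (r = 0.956), Spin4 (r = 0.95) and Ndfip1 (r = 0.932).

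**Figure D4:**
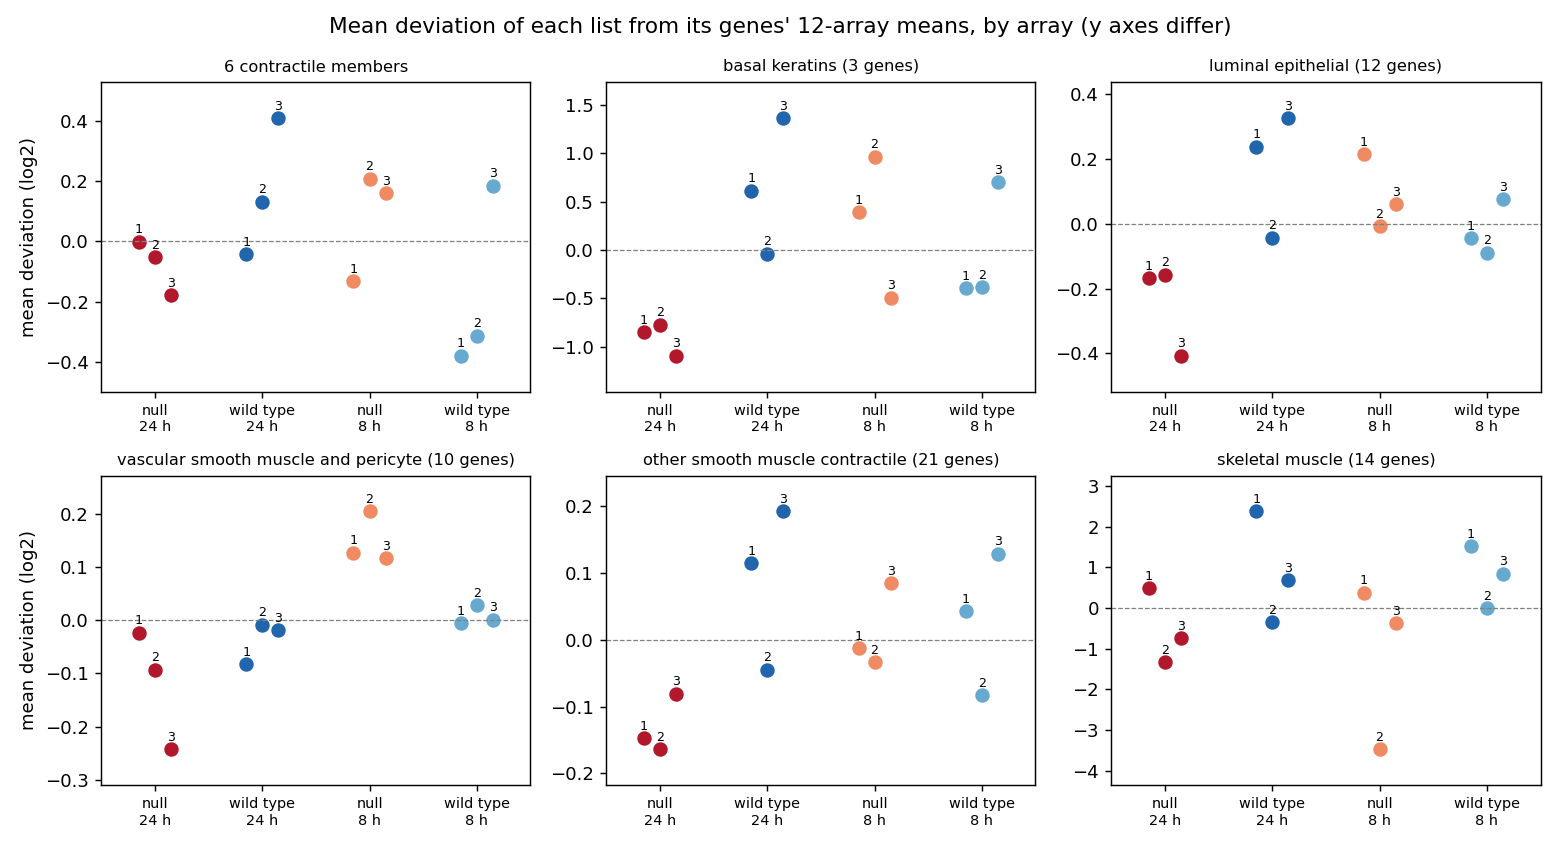
Mean deviation (log2) of 6 gene lists from their genes' own 12-array means, by array; small numbers are pool numbers and y axes differ between panels. The contractile genes have their lowest values in wild type 8 h pools 1 and 2, the basal keratins in the 3 null 24 h pools, and the skeletal muscle genes in null 8 h pool 2.

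Oxtr was lower at 24 h than at 8 h of progesterone in both genotypes, and its time course was the largest difference among the 10 genes. Probe set 1440888_at read 9.42, 9.95 and 9.63 in null glands at 24 h, against 11.36, 11.28 and 11.33 in null glands at 8 h. In wild type glands it read 9.84, 9.33 and 9.84 at 24 h, against 11.18, 11.13 and 10.92 at 8 h. All 6 pools at 24 h lay below all 6 at 8 h: the highest read 9.95 at 24 h and the lowest read 10.92 at 8 h. The means were 9.66 ± 0.27 in null and 9.67 ± 0.30 in wild type glands at 24 h, and 11.32 ± 0.04 in null and 11.08 ± 0.14 in wild type glands at 8 h (SD, n = 3 each).

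In null glands Oxtr fell 3.15-fold (difference -1.66, SE 0.15, 95% interval -1.99 to -1.32, adjusted p = 0.00037), the 31st largest fall of the 23709 probe sets. In wild type glands the difference was -1.41 (SE 0.15, adjusted p = 0.0011). The second probe set, 1426000_at, read 5.88, 5.84 and 5.83 in null glands at 24 h, against 6.80, 6.97 and 7.06 at 8 h, and 5.90, 5.80 and 5.84 in wild type glands at 24 h, against 6.66, 6.79 and 6.70 at 8 h. It fell 2.13-fold in null glands (adjusted p = 0.00018) and 1.83-fold in wild type glands (adjusted p = 0.00099). At 24 h it lay at the array median, which limits how far a fall can be read there. The calls of 1440888_at held in all 21 alternatives run and those of 1426000_at in all 20, each pool left out included.

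Between genotypes Oxtr did not pass at either time. At 24 h the differences of its probe sets were -0.005 and 0.006 (SE 0.15 and 0.09), with 95% intervals from -0.34 to 0.33 and from -0.19 to 0.21. At 8 h all 3 null pools lay above all 3 wild type pools with both probe sets, by 0.24 (SE 0.15, adjusted p = 0.50) and 0.23 (SE 0.09, adjusted p = 0.25). The fall over time was larger in null glands by 0.25 and 0.22 (differences -0.25 and -0.22, SE 0.22 and 0.13, unadjusted p = 0.28 and 0.12), which did not pass. The intervals of these differences, -0.72 to 0.23 and -0.51 to 0.06, bound how unlike the time courses of the genotypes could be.

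The partners of Oxtr did not follow it. Of 15 tested genes of oxytocin and contraction signalling, among them Gq, phospholipase C and calcium channel genes, 0 were called with limma in any of the 5 comparisons (from 0 to 3 had an unadjusted p below 0.05), and the median difference over time was -0.06 in null and -0.03 in wild type glands. The genes most like Oxtr over the 12 arrays were Tanc2 (r = 0.973), the transporter gene Slc16a12 (r = 0.961) and Wfdc2 (r = 0.957). Wfdc2 averaged 8.82 in null and 9.25 in wild type glands at 24 h, and 11.00 in null and 10.83 in wild type glands at 8 h.

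Itga6, the integrin α6 gene, differed little. Probe set 1422445_at read 10.50, 10.47 and 10.56 in null glands at 24 h, against 10.61, 10.57 and 10.94 in wild type glands, with all null pools below all wild type pools (-0.20, SE 0.10, adjusted p = 0.43). At 8 h it read 10.53, 10.77 and 10.67 in null glands, against 10.57, 10.71 and 10.76 in wild type glands, and the groups overlapped (-0.02, SE 0.10, adjusted p = 0.95). The other probe set, 1422444_at, read 9.14, 8.84 and 8.95 in null glands at 24 h, against 9.46, 9.33 and 9.32 at 8 h, without overlap (-0.39, SE 0.12, adjusted p = 0.094). It passed in that comparison without wild type 24 h pool 2 (adjusted p = 0.048) and with arrays weighted by their quality (0.0052). The probe set 1422445_at gave -0.14 there (SE 0.10, adjusted p = 0.46).

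Cdh3, the P-cadherin gene of basal cells, read near the array median with one probe set and below it with the other. Its higher probe set, 1426673_at, read 5.87, 5.95 and 5.50 in null glands at 24 h, against 5.79, 5.68 and 6.25 in wild type glands, and 5.79, 5.78 and 5.75 in null glands at 8 h, against 5.79, 5.73 and 5.70 in wild type glands. It exceeded the array median on 2 of the 12 arrays, so it was not tested. The other, 1441255_at, read 3.71 to 4.15 and was below the median on all 12 arrays. The groups of 1426673_at overlapped at both times, and its highest value was in wild type 24 h pool 3.

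Genes that work with cadherins and integrins were counted as well. Of 12 cadherin and desmosome genes, 11 lay lower in null glands at 24 h (median -0.43), and 0 were called with limma (6 had an unadjusted p below 0.05). At 8 h 8 lay higher (median 0.08) and Pkp2, which encodes the desmosome protein plakophilin 2, was called, 1.83-fold higher in null glands (adjusted p = 0.029). Of 18 integrin and basement membrane genes, 11 lay lower in null glands at 24 h (median -0.07) and 14 higher at 8 h (median 0.14), and 0 were called with limma (5 and 2 had an unadjusted p below 0.05). Plec, the gene of the linker plectin, was 1.26-fold lower at 24 h than at 8 h in null glands (adjusted p = 0.042).

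Of 24 other genes of basal epithelium, the called ones split in direction. Whole-gland RNA does not show which cells such a change came from. At 24 h Dll1, a Notch ligand gene, was 1.43-fold lower in null glands (adjusted p = 0.010). At 8 h Lgr5, a receptor gene of the Wnt pathway, was 2.09-fold higher in null glands (adjusted p = 0.0057) and the neurotrophin receptor gene Ntrk2 1.32-fold higher (0.043). The podoplanin gene Pdpn was 2.02-fold lower there (0.0032) and the Wnt pathway transcription factor gene Tcf7l2 1.23-fold lower (0.036). Over time, Igfbp5 fell 1.58-fold (adjusted p = 0.0089) and Dll1 1.29-fold (0.033) in null glands, and in wild type glands the Notch ligand gene Jag1 rose 1.24-fold (0.030) and Tcf7l2 fell 1.21-fold (0.045). The list's median was -0.11 at 24 h and 0.03 at 8 h.

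Counted over the 13 probe sets, the calls fell on Trp63, Oxtr and Actg2. At 24 h 1 member probe set was called between genotypes, where 1.11% of all probe sets were, and 4 had groups that did not overlap, where 15.3% of all did. At 8 h 0 were called with limma (2 had an unadjusted p below 0.05), where 3.07% of all were, and 3 did not overlap, where 24.4% of all did. For the change of the genotype difference 0 were called with limma (4 had an unadjusted p below 0.05), where 0.143% of all were. Over time in null glands 2 were called, both of them probe sets of Oxtr, where 4.40% of all were, and 4 did not overlap, where 26.0% of all did. Over time in wild type glands 3 were called, both Oxtr probe sets and that of Actg2, where 5.22% of all were. There 3 did not overlap, where 25.9% of all did.

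Counted by gene, with 1 probe set each, 8 of the 9 tested genes lay lower in null glands at 24 h (median -0.30) and 7 lay higher at 8 h (median 0.19), against a median of -0.01 over all 12002 genes at both times. For the change of the difference between the times, all 9 lay below 0 (median -0.46), and 0 were called with limma (4 had an unadjusted p below 0.05). Over time, 8 of the 9 lay lower at 24 h in null glands (median -0.18, against -0.02 over all genes) and 8 lay higher at 24 h in wild type glands (median 0.31, against -0.01), with Oxtr the one that fell there. The comparisons share pools, so these counts are not independent of each other. Nor are the genes within a count, since the 6 contractile genes varied together between pools. The change is the 24 h difference minus the 8 h difference, so its count is not a separate result.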

How the data were processed

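Expression was read from 1 deposited table of 45101 probe sets by 12 arrays. The authors' deposited values were taken to be log2 from their span of 2.22 to 14.7, since neither scale nor base is stated. RNA came from a lipid tissue kit and was hybridised as biotinylated cRNA, per the labels' protocols. MAS5 is named with no role or version, per the submitters' processing notes. How probes were summarized and arrays normalized is not given in the sources at hand. No value was renormalized.

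Gene names came from the platform annotation, with symbols looked up by Entrez ID in a RefSeq table of GRCm38.p6 (0 changed). Of 45037 probe sets other than controls, 34945 had 1 symbol, 932 several and 9160 none, and no member probe set was shared with another gene. The 23709 probe sets that exceeded the array median on 3 or more arrays were tested, and each gene was read from the probe set whose mean was highest. Tests used limma 3.58.1 in R 4.3.3 (4 group means over all 12 arrays, trended prior, 8 residual degrees of freedom, two-sided), and the calculation was tested on simulated data. SE is the moderated standard error. The labels call the pools biological replicates, and 3 arrays per group limit the precision.

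The members, gene lists and tests were chosen with earlier results of these data known. Named were all members, up to 4 called genes of each list per comparison with the largest change, and the 3 genes most like Trp63, Oxtr and Myh11. The pool numbers are not said to mark a shared batch. Deviations from the group means correlated between null 24 h and null 8 h arrays of the same number (r = 0.517, 0.264 and 0.384), so the numbers may pair these arrays. The other pairings of groups did not pass this check. The main fits took all pools as unpaired, the null pools included. The replicate block, run as an alternative, applied the pool numbers to all 4 groups, and no fit paired the null groups alone. No scanner files were used here. Alternatives covered the filter, a floor, the prior, quantile normalization, array weights, the arrays fitted, a replicate block, 1 probe set per gene and each pool left out. Figures were drawn with matplotlib 3.10.9.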

Additional observations from a re-analysis of the deposited data

How the results depend on the processing

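Of 1332 values of the 65 member results under alternatives, 1258 kept direction and side of the threshold, 11 lost a call, 19 gained one, 44 uncalled values (from -0.17 to 0.17) took the other sign and 0 called values reversed. The lost calls were those of Trp63 at 24 h and Actg2 over time in wild type glands, each lost also with only the arrays compared (adjusted p = 0.079 and 0.058). The cause of each change was not tested. Array weights, which ran from 0.47 to 3.20 between pools, gave most of the gains. With them 5 member probe sets were called at 8 h, 1 for the change of the genotype difference and 5 over time in each genotype, and 685 probe sets in all at 24 h, 4017 at 8 h, 169 for the change and 5775 over time in null glands. With only the arrays compared, 0 members and 71 probe sets in all were called at 24 h, and 348 and 500 over time in null and wild type glands. With the replicate block, Actg2 was called at 8 h (adjusted p = 0.041), so 1 member was called there, and 482 probe sets in all were called at 24 h and 1667 over time in null glands; the block changed no other member call. With quantile normalization 1 member, Actg2, was called at 8 h. With 1 probe set per gene, which tests fewer probe sets, the totals were 165 at 24 h, 339 at 8 h, 10 for the change, and 572 and 649 over time in null and wild type glands, with 1 member called over time in null glands. With both wild type pools 3 left out, 126 were called at 24 h, 18 for the change and 287 over time in wild type glands.

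Leaving out each pool in turn, the totals ran from 126 to 704 at 24 h, 320 to 889 at 8 h, 12 to 45 for the change, 232 to 1202 over time in null glands and 239 to 1328 over time in wild type glands. Member calls ran from 0 to 1 at 24 h and at 8 h, 2 to 3 over time in null glands and 2 to 4 over time in wild type glands. For probe sets near the array median, such as the lower tested ones of Oxtr and Myh11, and below it, such as the lower one of Cdh3, weak signal limits what can be read. The same limit holds for Trp63 in null glands at 24 h, where pools 2 and 3 lay below their array medians.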
